A study of Mus musculus with 6 samples.

Results

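The 33 genes described here are macrophage and major histocompatibility complex (MHC) class II genes, chosen by name from what the genes are known for, among the 42256 genes of a table of RNA levels in sorted mouse heart cells. All 33 were found in the table and all 33 passed the filter on low counts. Of these, 29 are macrophage genes and 4 are MHC class II genes. Macrophages are phagocytes of the innate immune system. In the infarcted heart some descend from resident cells seeded before the injury and others from blood monocytes that follow chemokines through the receptor CCR2, and both clear dead tissue beside the fibroblasts that build the scar. Their identity is set by the transcription factor PU.1, encoded by Spi1, and their survival by signals through the receptor CSF1R. MHC class II molecules present peptides to CD4 T cells and are made by some macrophages, by dendritic cells and by B cells.

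The libraries were made from PDGFRa+ cells, sorted by flow cytometry as a fibroblast fraction from heart scar that was digested with collagenase 7 days after injury; the mice were of the strain Mixed 129S2/C57Bl6, and their age is not given in the sources used here. In the 4 Htr2b_cKO libraries the genotype was Htr2bfl/flPostnMCM/+, in which both copies of the serotonin receptor gene Htr2b are floxed and 1 allele of Postn carries a tamoxifen-inducible Cre. In the 2 control libraries the genotype was Htr2bfl/fl, with no Cre. Mice of both genotypes ate tamoxifen chow from 1 week before the experiment onward, so the groups shared tamoxifen. No control carried the Cre, and what the Postn allele and the Cre do by themselves cannot be told apart from what the loss of Htr2b does. The Cre is driven by Postn, which activated fibroblasts switch on, and not by a macrophage gene. Each library was taken as 1 animal, as the series design speaks of animals.

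Library totals ran from 28533427 to 37392496 estimated counts, and a count of 0 allows up to 0.0781 to 0.1085 CPM (counts scaled to library size), for counting error only. The library labelled Htr2b_cKO 3 had 29 counts of Htr2b, above the 13 and 7 counts of the control libraries, so the target gene went against its label there. The other 3 Htr2b_cKO libraries had 0 to 4. Htr2b was low in every library, at 0.876 CPM or less, so these few counts do not settle the genotype of the library labelled Htr2b_cKO 3. The library labelled Htr2b_cKO 4 was the only male one, with 0.267 CPM of Xist against 385 CPM or more elsewhere. Kdm5d, a gene of the Y chromosome, had 896 counts there, 16 in the library labelled Htr2b_cKO 3 and 0 or 1 in the others. Where those 16 counts came from was not tested. Both libraries matter below, because they were at the ends of the range for most members. The 7 fibroblast markers, with the sorting marker Pdgfra among them, made up 7.55% to 12.9% of each library, and the 29 macrophage genes 0.0773% to 0.67%. In such bulk samples a larger number of cells of a type and more RNA per cell cannot be told apart.

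Macrophage transcripts were present in every library, at levels that differed far more between libraries than between the genotypes. The sum of the 29 genes was 4269 CPM in control 1 and 1482 CPM in control 2. It was 1445 CPM in Htr2b_cKO 1, 3679 CPM in Htr2b_cKO 2, 6703 CPM in the library labelled Htr2b_cKO 3 and 773 CPM in Htr2b_cKO 4. The highest sum was 8.67-fold above the lowest, and both lay in Htr2b_cKO libraries, on either side of both controls. The difference of the mean log2 sums, Htr2b_cKO minus control, was -0.13 (exact permutation test over libraries, two-sided, p = 0.733). With 15 splits of 2 against 4 libraries the smallest p such a test can give is 0.0667. The sign of that difference turned with the library left out, from -0.90 without control 2 to 0.63 without control 1.

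**Figure D1:**
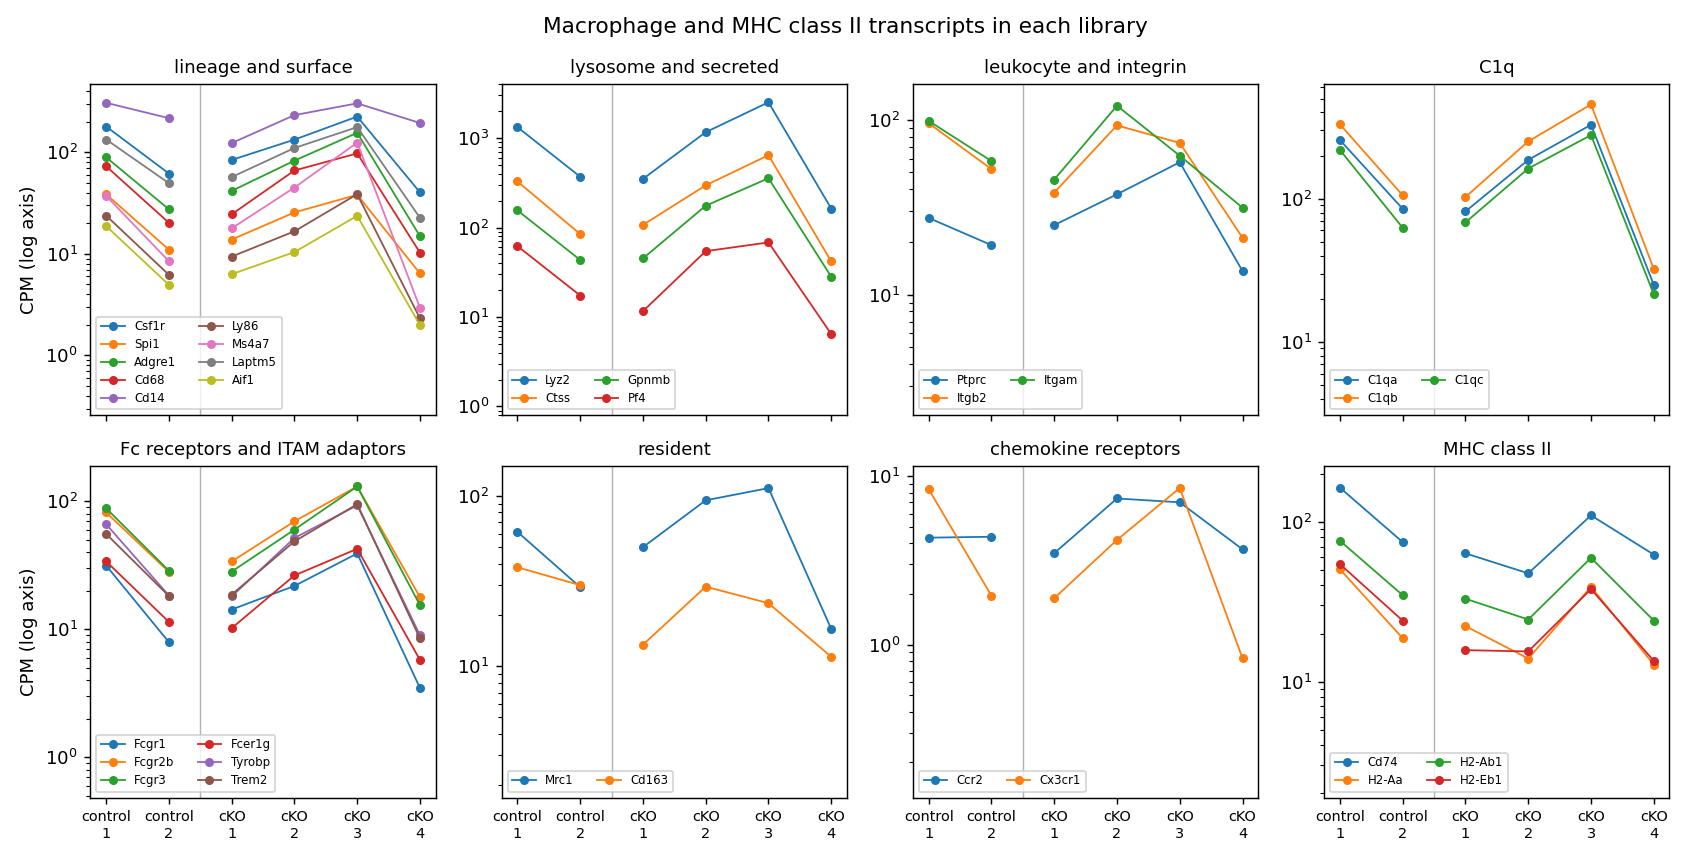
CPM of each of the 33 genes (log axis) in the 2 control and 4 Htr2b_cKO (cKO) libraries, 1 panel per role, with 1 point per library. Lines only join the points of a gene and imply no order; most genes are highest in the library labelled Htr2b_cKO 3 and lowest in Htr2b_cKO 4, and the MHC class II genes are highest in control 1.

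The 9 lineage and surface genes had the same 3 highest libraries, in varying order: control 1, Htr2b_cKO 2 and the library labelled Htr2b_cKO 3. Csf1r, the receptor for the macrophage growth factors, had a level of 179.5 CPM in control 1, 61.8 CPM in control 2 and 84.1, 133, 225 and 40.4 CPM in Htr2b_cKO 1 to 4, the order used for every gene that follows. Spi1 stood at 38.6 and 10.99 CPM in control and at 13.8, 25.6, 38.2 and 6.42 CPM in Htr2b_cKO. Adgre1, which encodes the surface protein F4/80, stood at 89.2 and 27.5 CPM against 41.7, 82.8, 156 and 14.9 CPM. Csf1r and Adgre1 were highest in the library labelled Htr2b_cKO 3 and Spi1, by a small margin, in control 1, and the groups overlapped for all 3. The endosomal glycoprotein gene Cd68 had 72.9 and 20.2 CPM in control and 24.5, 66.2, 97.5 and 10.3 CPM in Htr2b_cKO. The widest range of any member was that of the tetraspan gene Ms4a7, with 37.2 and 8.46 CPM in control and 17.9, 44.97, 125 and 2.94 CPM in Htr2b_cKO, a 42.3-fold range. Ly86, Laptm5 and Aif1 had ranges of 16.7-fold, 7.82-fold and 11.9-fold in the same 3 higher and 3 lower libraries.

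Among products of the lysosome and secreted proteins, Lyz2, the gene of the bacteria-cleaving enzyme lysozyme, was the most abundant member per length of exon, with a mean of 746 CPM per kb. Its levels were 1328 and 370.1 CPM in control and 350.1, 1166, 2517 and 163 CPM in Htr2b_cKO. The related gene Lyz1 shares 32.8% of the 31-base stretches of Lyz2 transcripts, so how the counting divided their reads is uncertain. Lyz1 stood at 0.535 to 7.46 CPM, and the sum of both followed the order of Lyz2. The lysosomal protease gene Ctss reached 645 CPM in the library labelled Htr2b_cKO 3 and had 41.8 CPM in Htr2b_cKO 4. Gpnmb, a glycoprotein gene of lipid-laden phagocytes, had 156 and 43.5 CPM in control and 45.2, 175, 356 and 28.2 CPM in Htr2b_cKO. Pf4, which encodes a chemokine of platelets and resident macrophages, had 62.1 and 17.4 CPM in control and 11.6, 54.5, 68.2 and 6.45 CPM in Htr2b_cKO.

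The 3 chains of C1q, the recognition protein of the classical complement pathway, stayed close to each other in every library. C1qa stood at 257 and 84.9 CPM in control and at 81.5, 187, 328 and 25.0 CPM in Htr2b_cKO. C1qb stood at 330.1 and 106 CPM in control and at 103, 251, 455 and 32.3 CPM in Htr2b_cKO. C1qc stood at 219 and 62.6 CPM in control and at 68.3, 162, 278 and 21.5 CPM in Htr2b_cKO. All 3 had their highest level in the library labelled Htr2b_cKO 3 and their lowest in Htr2b_cKO 4, 12.9-fold to 14.1-fold apart. The 3 genes lie side by side on mouse chromosome 4, with C1qb from 136880129 to 136886187, C1qc from 136889804 to 136893065 and C1qa from 136895917 to 136898803 (mm10).

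Promoters of the members were read from RefSeq (GRCm38.p6, the build that mm10 names), where 24 of the 33 genes had an entry, to see whether genes that shared the order of libraries also shared letters known from PU.1 sites. The PU.1 core GAGGAAGT was searched on both strands of the 250 bases before each start. It was found for 2 of the 24 genes, C1qc and Pf4, and in 2.44% of the 32851 promoters of the mouse table. Its shorter ETS core GAGGAA, which every PU.1 core holds, was found for 13 of the 24 genes and in 23.3% of all promoters. These were Aif1, C1qb, C1qc, Cd68, Ctss, Fcgr1, Fcgr3, Itgam, Laptm5, Mrc1, Pf4, Ptprc and Trem2. A gene with several starts was counted if any of its promoters held the letters. The percentages count single promoters, so they are not a like background for the counts of genes. The matches of the longer core are shown in capitals, 5′ to 3′ on the strand of the gene, where they read as the reverse complement; C1qc lies at chr4:136893055-136893134 on the minus strand and Pf4 at chr5:90772355-90772434 on the plus strand.
C1qc: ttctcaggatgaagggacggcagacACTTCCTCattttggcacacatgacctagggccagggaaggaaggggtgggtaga
Pf4: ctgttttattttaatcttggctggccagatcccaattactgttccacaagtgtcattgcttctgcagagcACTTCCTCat
The match begins 195 bases before the start of C1qc and 10 bases before the start of Pf4. It is a match of letters and not a measured site.

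Fc receptors and their signalling partners followed the lineage genes. Fcgr3, an activating receptor for the constant part of IgG, had 87.8 and 28.6 CPM in control and 28.2, 59.9, 130.1 and 15.4 CPM in Htr2b_cKO. Fcgr2b, the inhibitory receptor of the family, had 81.5 and 28.0 CPM in control and 33.8, 69.5, 130.3 and 17.8 CPM in Htr2b_cKO. Activating and inhibitory receptor thus had the same 3 higher libraries, but 13.4% of the 31-base stretches of Fcgr3 transcripts also occur in Fcgr2b transcripts, and their counts are uncertain to that extent. The adaptor genes Fcer1g and Tyrobp, whose proteins carry the signal of receptors that have no signalling tail of their own, behaved alike. Fcer1g had 33.9 and 11.4 CPM in control and 10.2, 26.3, 42.4 and 5.76 CPM in Htr2b_cKO, and Tyrobp had 66.0 and 18.3 CPM against 18.0, 51.6, 92.7 and 8.97 CPM. Trem2, a lipid receptor that signals through the product of Tyrobp, had 55.4 and 18.1 CPM in control and 18.6, 48.5, 94.6 and 8.47 CPM in Htr2b_cKO. Fcgr1, the high-affinity receptor for IgG, ranged from 3.48 CPM in Htr2b_cKO 4 to 39.0 CPM in the library labelled Htr2b_cKO 3.

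The order of the libraries can be counted. In 27 of the 29 macrophage genes the 3 highest libraries were the library labelled Htr2b_cKO 3, control 1 and Htr2b_cKO 2, as in 9.07% of all 15840 genes tested. The library labelled Htr2b_cKO 3 was the highest for 23 of the 29 (20.1% of all genes tested) and Htr2b_cKO 4 the lowest for 27 of the 29 (16.2% of all genes tested). In 23 of the 29 the library labelled Htr2b_cKO 3 was the highest and Htr2b_cKO 4 the lowest, as in 5.37% of all genes tested. The 2 exceptions to the first count were Cd163 and Ccr2. The order of all 6 libraries varied more, and the commonest one was found in 11 of the 29 genes. Between the control libraries alone, control 1 was a median of 3.13-fold above control 2, from 0.987-fold for Ccr2 to 4.40-fold for Ms4a7. The members are genes of one cell type and not independent of each other.

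Besides Cd163 and Ccr2, described with the resident and recruited markers, other members departed in part. Cd14, the co-receptor for bacterial lipopolysaccharide, had 307 and 217 CPM in control and 123, 232, 304 and 194 CPM in Htr2b_cKO, a range of only 2.49-fold with Htr2b_cKO 1 the lowest. Itgam and Itgb2, which encode the 2 chains of the integrin CD11b/CD18 shared with neutrophils, were not highest in the library labelled Htr2b_cKO 3. Itgam was highest in Htr2b_cKO 2, at 120.2 CPM, against 62.3 CPM in the library labelled Htr2b_cKO 3 and 98.4 CPM in control 1. Itgb2 stood at 95.5 CPM in control 1, 92.8 CPM in Htr2b_cKO 2 and 73.7 CPM in the library labelled Htr2b_cKO 3. The pan-leukocyte phosphatase gene Ptprc (CD45) had 27.4 and 19.2 CPM in control and 24.9, 37.4, 57.1 and 13.6 CPM in Htr2b_cKO; it had the highest and lowest libraries of most members, over a narrower range of 4.19-fold. Reads of Itgam are uncertain, because 67.2% of its 31-base stretches also occur in the annotated transcripts of Gm49368, a gene not analysed here.

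No member passed the test between the genotypes. The quasi-likelihood F test of edgeR, adjusted over all 15840 genes, called 0 of the 33 (0.0189% of all genes tested were called), and an unadjusted p under 0.05 was reached by 0 of the 33 (9.59% of all genes tested, 6.6% higher and 2.99% lower in Htr2b_cKO). DESeq2 and limma voom also called 0. At an unadjusted p under 0.05, DESeq2 had 3 of the 33 lower in Htr2b_cKO (Cd163, Cd74 and H2-Eb1; 1.51% of all genes in that fit) and limma voom 1 (Cd163; 3.14%). Log2 fold changes here are Htr2b_cKO minus control. Fold changes above 0 were found for 14 of the 29 macrophage genes and below 0 for 15 (50% of all genes tested either way); their median was -0.0012, and that of all genes tested -0.00012. The fold change of Csf1r was -0.0020 (SE 0.74, adjusted p = 1.0), with 2 SEs on either side reaching from -1.49 to 1.49. It was 0.09 for Cd68 (SE 0.96), 0.30 for Lyz2 (SE 1.15), -0.14 for C1qa (SE 0.99), 0.60 for Gpnmb (SE 1.14) and 1.05 for Ms4a7 (SE 1.38). For Ptprc and Cd14 it was 0.51 (SE 0.55) and -0.30 (SE 0.33). The edgeR adjusted p of these 8 genes lay between 0.804 and 1.0.

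The width of those intervals follows from the libraries. The SD of the log2 level within a genotype had a median of 1.35 over the 29 macrophage genes and of 0.255 over all genes tested. The median SE of their fold changes was 0.94, so a difference of 2-fold in a typical macrophage gene was not detectable with these libraries. Leaving out 1 library turned the sign of the fold change in 26 of the 33 members. Without control 1, 29 of the 33 were above 0 with a median of 0.99; without control 2, 29 of the 33 were below 0 with a median of -0.59. Without the library labelled Htr2b_cKO 3, 30 of the 33 were below 0 (median -0.59), and without Htr2b_cKO 4, 24 of the 33 were above 0 (median 0.31). None of these fits called a member.

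**Figure D2:**
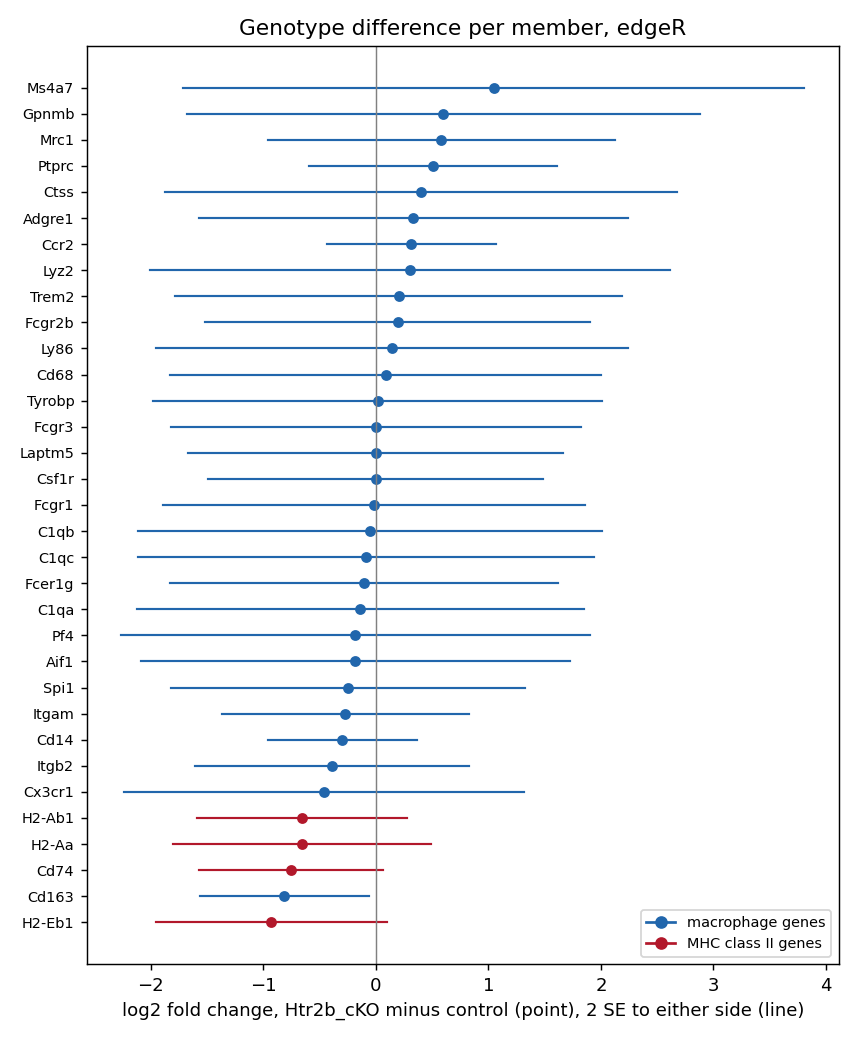
Log2 fold change of each member, Htr2b_cKO minus control, from the edgeR fit over all genes (point) with 2 SEs to either side (line); macrophage genes are blue and MHC class II genes red. The macrophage genes scatter about 0 with wide intervals, the 4 MHC class II genes lie between -0.93 and -0.66, and the line of Cd163 (-0.81) alone stays below 0, without passing the adjusted test.

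Markers of resident and of recruited macrophages were compared within each library, where the scaling of the library cancels. Mrc1 (CD206), the mannose receptor, and Cd163, the scavenger receptor for haemoglobin bound to haptoglobin, mark resident heart macrophages, and Ccr2 marks monocytes and the macrophages that come from them. Mrc1 stood at 61.5 and 29.1 CPM in control and at 49.99, 94.2, 111 and 16.5 CPM in Htr2b_cKO, with the 3 highest libraries of the lineage genes. Cd163 stood at 38.1 and 29.9 CPM in control and at 13.4, 29.3, 23.4 and 11.3 CPM in Htr2b_cKO. Both control libraries lay above all 4 Htr2b_cKO libraries for Cd163, by a narrow margin over Htr2b_cKO 2. It was the only one of the 33 members whose groups did not overlap (19.6% of all genes tested; 8.98% with Htr2b_cKO below). Ccr2 stood at 4.32 and 4.37 CPM in control and at 3.49, 7.38, 7.00 and 3.68 CPM in Htr2b_cKO, with the smallest range of the members at 2.11-fold.

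The log2 fold change of Cd163 was -0.81 (SE 0.38), 19.4 ± 8.5 CPM in Htr2b_cKO (SD, n = 4) against 34.0 ± 5.8 CPM in control (SD, n = 2), with an edgeR adjusted p of 0.563 and an unadjusted p of 0.0677. It did not pass, and it lay between -1.08 and -0.62 when each library was left out in turn. Mrc1 had a log2 fold change of 0.58 (SE 0.77, edgeR adjusted p = 0.844) and Ccr2 of 0.32 (SE 0.38, edgeR adjusted p = 0.818). Cd163 (ENSMUSG00000008845) spans chromosome 6 from 124304656 to 124330527, Mrc1 (ENSMUSG00000026712) chromosome 2 from 14229392 to 14332057, and Ccr2 (ENSMUSG00000049103) chromosome 9 from 124101950 to 124113557 (mm10).

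The ratio of Cd163 to Ccr2, each with 0.5 CPM added, was 8.01 and 6.24 in the control libraries and 3.47, 3.78, 3.19 and 2.83 in Htr2b_cKO 1 to 4. All 4 Htr2b_cKO libraries lay below both controls, a difference of -1.10 on the log2 scale (exact permutation test, two-sided, p = 0.0667, the smallest p this design can give). The difference lay between -1.28 and -0.92 when each library was left out, and it was -0.96 without both the library labelled Htr2b_cKO 3 and Htr2b_cKO 4. The ratio of Mrc1 to Ccr2 was 12.9 and 6.07 in control and 12.6, 12.02, 14.9 and 4.07 in Htr2b_cKO. These groups overlapped and differed by 0.15 on the log2 scale (exact permutation test, two-sided, p = 0.933). The resident markers thus gave different pictures: Mrc1 varied 6.71-fold over the libraries with the lineage genes, whereas Cd163 varied 3.36-fold and was not high in the library labelled Htr2b_cKO 3. Cx3cr1, the fractalkine receptor of patrolling monocytes and of resident macrophages, had 8.38 and 1.95 CPM in control and 1.89, 4.19, 8.51 and 0.832 CPM in Htr2b_cKO (log2 fold change -0.46, SE 0.89, edgeR adjusted p = 0.902).

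**Figure D3:**
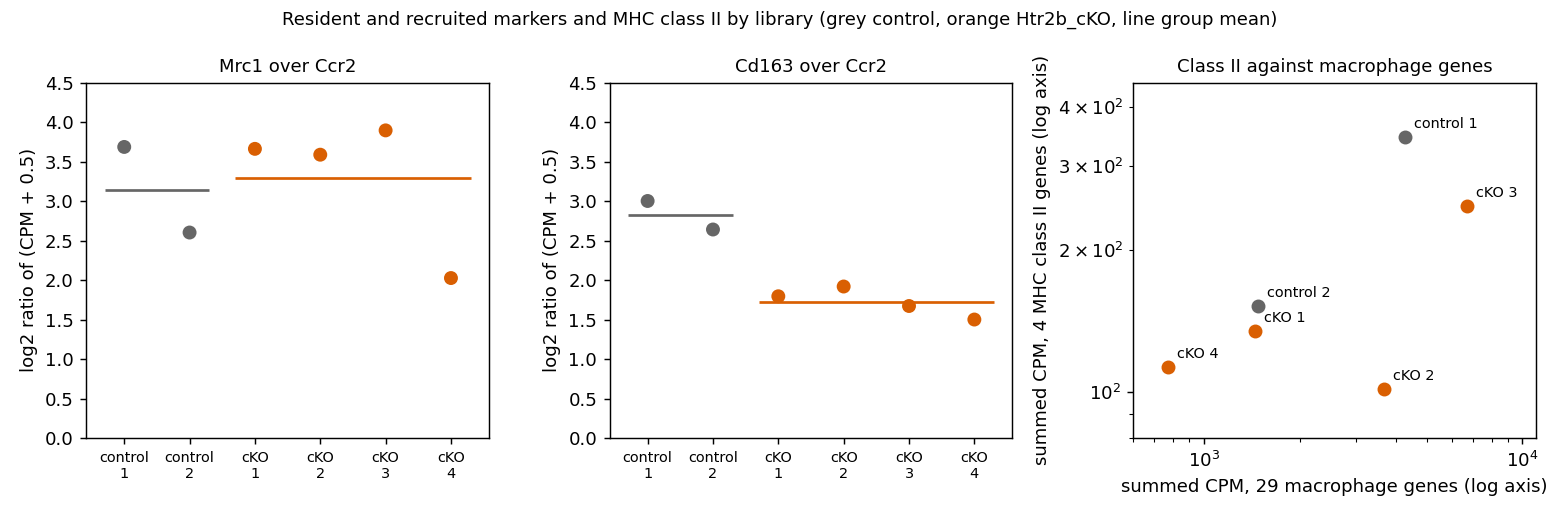
Left and middle, log2 ratio of Mrc1 and of Cd163 to Ccr2 in each library (0.5 CPM added to each gene), with group means as lines, control in grey and Htr2b_cKO in orange; right, summed CPM of the 4 MHC class II genes against the summed CPM of the 29 macrophage genes (log axes). The Cd163 ratio is above 2.6 in both controls and below 2 in all 4 Htr2b_cKO (cKO) libraries, the Mrc1 ratio overlaps between groups, and Htr2b_cKO 2 has many macrophage transcripts with few class II transcripts.

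Other genes of resident macrophages and of monocytes, from lists drawn up by function, gave further values. Of 12 resident macrophage genes 5 were above 0 and 7 below, and edgeR called 0 of the 12. The one with an unadjusted p under 0.05 was Timd4, a receptor for dying cells that marks long-lived resident macrophages. It had 2.78 and 3.04 CPM in control and 0.606, 0.964, 1.09 and 0.535 CPM in Htr2b_cKO, with no overlap (log2 fold change -1.85, SE 0.40, edgeR adjusted p = 0.322). Timd4 was the 1 gene of the 12 whose groups did not overlap (19.6% of all genes tested). Of the 12, 6 had the 3 highest libraries of the macrophage genes (9.07% of all genes tested). Gas6 and Maf varied only 1.25-fold and 1.27-fold over the libraries, with log2 fold changes of 0.0056 and 0.033. Vsig4, a complement receptor of resident macrophages, overlapped between the groups, with 7.00 ± 2.13 CPM in control (SD, n = 2) and 2.97 ± 2.27 CPM in Htr2b_cKO (SD, n = 4). Of 11 monocyte genes 3 were above 0 and 8 below, and 0 were called. Only 3 of the 11 had the 3 highest libraries of the macrophage genes (9.07% of all genes tested). Hp was highest in Htr2b_cKO 4 at 2806 CPM and lowest in the library labelled Htr2b_cKO 3 at 734 CPM. Plac8 was highest in control 2, at 207 CPM. Which cells gave the transcripts of this list was not tested. Ly6c2, a surface marker of inflammatory monocytes, had 11.4 and 7.30 CPM in control and 1.67, 3.77, 5.59 and 5.11 CPM in Htr2b_cKO (log2 fold change -1.21, SE 0.40, edgeR adjusted p = 0.423). Plac8 had 195 ± 16 CPM in control (SD, n = 2) and 139 ± 32 CPM in Htr2b_cKO (SD, n = 4; edgeR adjusted p = 0.52). For both genes, 2 of the 11, all 4 Htr2b_cKO libraries lay below both controls (8.98% of all genes tested). Vcan and Fn1 of the same list are also fibroblast genes, and Vcan was its one member that was higher at an unadjusted p under 0.05 (447 ± 130 CPM in control, SD, n = 2, against 672 ± 146 CPM in Htr2b_cKO, SD, n = 4).

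The MHC class II genes were set apart from the other members. Cd74, the invariant chain that guides class II molecules to the endosome, had 164 and 74.7 CPM in control and 63.6, 47.7, 109.9 and 62.4 CPM in Htr2b_cKO. H2-Aa and H2-Ab1, the 2 chains of I-A, had 50.5 and 18.7 CPM, and 76.2 and 34.7 CPM, in control. In Htr2b_cKO they had 22.3, 13.9, 39.2 and 12.8 CPM, and 33.03, 24.5, 59.6 and 24.1 CPM. H2-Eb1, the beta chain of I-E, had 54.4 and 24.1 CPM in control and 15.7, 15.5, 38.0 and 13.5 CPM in Htr2b_cKO. Control 1 was the highest library for all 4 genes, with the library labelled Htr2b_cKO 3 next, and Htr2b_cKO 2, one of the 3 libraries with a high macrophage sum, was the lowest for Cd74 and next to the lowest for the other 3 genes. The groups overlapped for all 4.

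The 4 log2 fold changes were all below 0, with a median of -0.70. They were -0.75 for Cd74 (SE 0.41), -0.66 for H2-Aa (SE 0.57), -0.66 for H2-Ab1 (SE 0.47) and -0.93 for H2-Eb1 (SE 0.51), with edgeR adjusted p values of 0.618 to 0.75. None passed, and without control 1 they were -0.078, 0.23, 0.020 and -0.22. The summed class II CPM was 345 and 152 in control and 135, 102, 247 and 113 in Htr2b_cKO, a difference of -0.71 on the log2 scale (exact permutation test, two-sided, p = 0.267). It was -0.12 without control 1 and -1.30 without control 2. Without the library labelled Htr2b_cKO 3, whose Htr2b counts went against its label, it was -0.99 (exact permutation test, two-sided, p = 0.1, the smallest p left), and the sums of the remaining libraries did not overlap. That library had the highest class II sum of the 4 Htr2b_cKO libraries. Leaving it out therefore had to widen the difference. In the edgeR fit without that library Cd74, H2-Ab1 and H2-Eb1 were lower at an unadjusted p under 0.05 (3.96% of all genes in that fit), with fold changes of -1.04, -1.03 and -1.40 and adjusted p values of 0.322, 0.333 and 0.243. Relative to the macrophage sum, class II transcripts were at 0.0808 and 0.103 in control and at 0.0932, 0.0276, 0.0368 and 0.146 in Htr2b_cKO. Htr2b_cKO 2 and the library labelled Htr2b_cKO 3 were the low libraries and Htr2b_cKO 4 the high one, and the groups overlapped (difference -0.58 on the log2 scale, exact permutation test, two-sided, p = 0.6).

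Class II genes are switched on together through the X and Y boxes of their promoters and the transactivator CIITA, and RefSeq promoters were at hand for H2-Aa and H2-Eb1. The Y box CTGATTGG, an inverted CCAAT box (CCAAT, present in 33.8% of promoters), was found in both and in 3.83% of all promoters of the table. The letters ACAGATG of the common X box, searched likewise on both strands, were found for H2-Aa alone, 232 bases before the start and outside the stretch shown, and in 4.15% of all promoters. That match lies on the other strand. The search allowed no changed letter, so a match or its lack does not show where an X box lies in either promoter. Both stretches hold GCAACT upstream of the Y box, letters picked after the sequences were seen and present in 9.01% of all promoters. The capitals mark GCAACT and the Y box, 5′ to 3′ on the strand of the gene, in the last bases before the start; H2-Aa lies at chr17:34287824-34287923 on the minus strand and H2-Eb1 at chr17:34305747-34305866 on the plus strand (GRCm38.p6).
H2-Aa: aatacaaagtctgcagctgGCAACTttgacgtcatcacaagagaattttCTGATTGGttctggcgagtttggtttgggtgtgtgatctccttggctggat
H2-Eb1: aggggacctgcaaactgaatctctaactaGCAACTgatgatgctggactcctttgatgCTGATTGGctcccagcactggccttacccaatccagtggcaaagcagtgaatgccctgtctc
The Y box begins 51 bases before the start of H2-Aa and 62 bases before that of H2-Eb1, and GCAACT 81 and 91 bases before.

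Of 8 other genes of the class II machinery, all 8 had a log2 fold change below 0 (50% of all genes tested), 0 were called by edgeR, and 3 were lower at an unadjusted p under 0.05 (2.99% of all genes tested). The 3 were Ciita, H2-Ob and H2-Oa, all low in counts; Ifi30, a thiol reductase of the endosome and the most abundant of the 8, had 1164 to 2999 counts. Ciita had 3.10 and 1.84 CPM in control and 0.677, 0.663, 1.06 and 0.654 CPM in Htr2b_cKO, with both controls above all 4 Htr2b_cKO libraries (log2 fold change -1.72, SE 0.42, edgeR adjusted p = 0.326). H2-Ob and H2-Oa had the same separation, which makes 3 of the 8 (8.98% of all genes tested). H2-Ob, a chain of the peptide-loading regulator H2-O, had 1.74 and 1.59 CPM in control and 0.107, 0.633, 1.12 and 0.327 CPM in Htr2b_cKO (log2 fold change -1.57, SE 0.60, edgeR adjusted p = 0.472). The partner chain H2-Oa had 17 and 10 counts in control and 0, 0, 1 and 0 counts in Htr2b_cKO 1 to 4. H2-O is found above all in B cells and some dendritic cells. The sum of the 5 B-cell markers was 24.8 and 8.39 CPM in control and 2.74, 3.55, 14.2 and 3.95 CPM in Htr2b_cKO. These sums overlapped between the groups. All 5 fold changes were below 0 (50% of all genes tested), with a median of -1.40. Of the 5, 2 were lower at an unadjusted edgeR p under 0.05 (2.99% of all genes tested). Of the 5, Ms4a1 alone had a library at 0 counts, Htr2b_cKO 1. The sum of the 7 dendritic markers was 17.6 and 20.0 CPM in control and 11.5 to 16.0 CPM in Htr2b_cKO, with no overlap. Of these, Xcr1 had 1 count in control 1 and 0 elsewhere, and Zbtb46 made up most of the sum. The groups did not overlap for 2 of the 5 dendritic markers tested, Zbtb46 among them (19.6% of all genes tested). The part of B cells and dendritic cells in the class II values was not tested.

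Correlations across the 6 libraries restate these orders in 1 number per pair, as Pearson's r of log2(CPM + 0.5). Over the 406 pairs of macrophage genes the median r was 0.96 (range 0.42 to 1.0). Over the 6 pairs of class II genes it was 0.96, and over the 116 pairs of a class II with a macrophage gene it was 0.65 (range -0.050 to 0.82). Ccr2 had a median r of 0.71 and Cd163 of 0.68 with the other 28 macrophage genes, against 0.92 for Mrc1. Mrc1 with Cd163 gave 0.52, Mrc1 with Ccr2 0.77 and Cd163 with Ccr2 0.50.

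Csf1r was set against each of the other 32 members, each tested exactly over the 720 pairings of the 6 libraries. All 32 had r above 0, and 24 passed after Benjamini-Hochberg adjustment over the 32 (23 by Spearman's rho). A value of 0.9 or more was reached by 23 of the 32, and by 3.19% of all other genes tested. The highest values were those of Ly86 (r = 0.99, rho = 1.0), Aif1 (r = 0.99, rho = 1.0) and Spi1 (r = 0.99, rho = 0.94), with adjusted exact permutation p values of 0.00494, 0.00494 and 0.00635 for r. Among those that did not pass were Cd163 (r = 0.62, rho = 0.43, adjusted exact permutation p = 0.218 for r and 0.419 for rho) and Ccr2 (r = 0.67, rho = 0.49, adjusted exact permutation p = 0.185 for r and 0.367 for rho). Cd14, Itgam and the 4 class II genes did not pass either. Without the 2 libraries farthest from the median of Csf1r, Htr2b_cKO 4 and the library labelled Htr2b_cKO 3, r stayed above 0 for all 32 and at 0.9 or more for 20, while r was 0.48 for Cd163 and 0.37 for Ccr2.

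**Figure D4:**
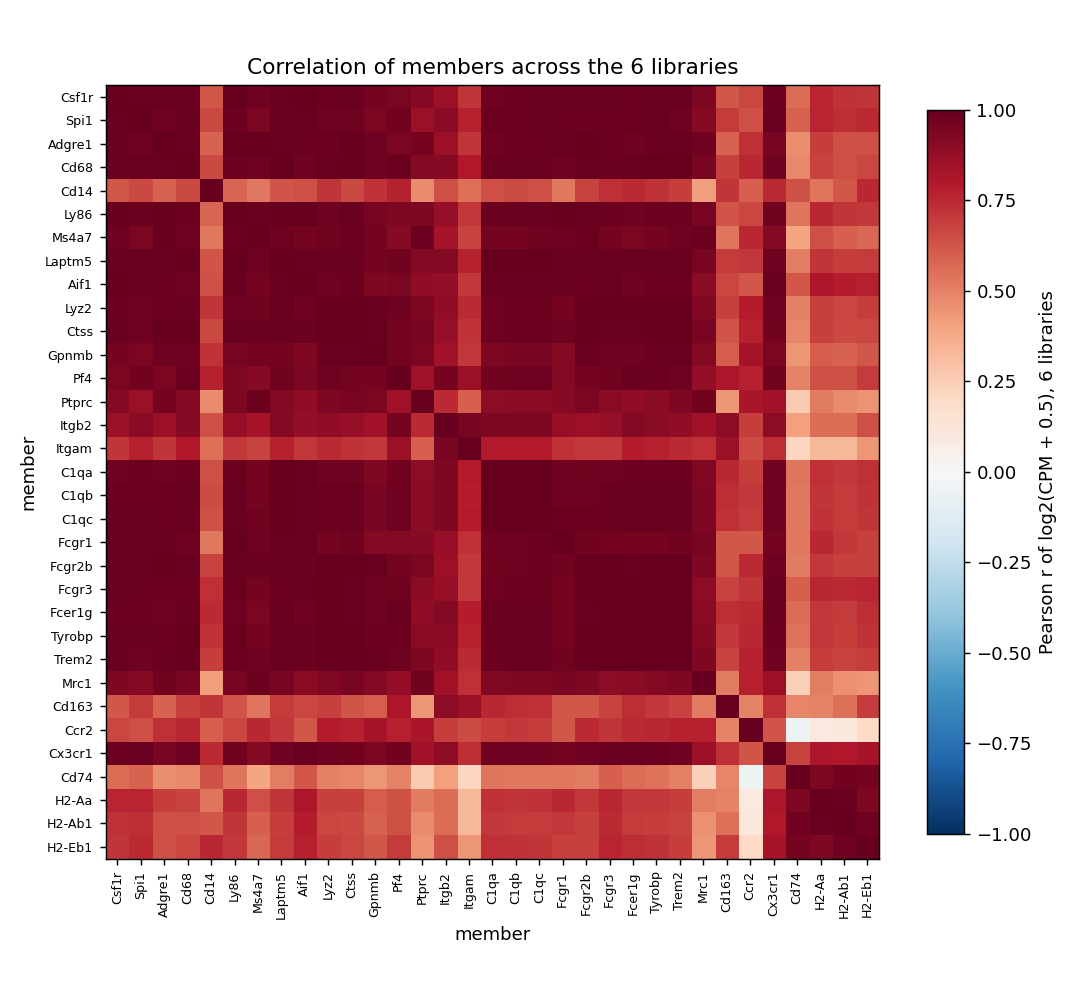
Pearson's r of log2(CPM + 0.5) across the 6 libraries for every pair of the 33 members, ordered by role, on a colour scale from -1 to 1. The lineage, C1q, Fc receptor and lysosomal genes form 1 dark block, Cd14, Itgam, Cd163 and Ccr2 are paler, and the 4 MHC class II genes form a block of their own.

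The 3 highest libraries of the macrophage genes were also those of 26 of 29 further myeloid genes (9.07% of all genes tested). The 3 others were Csf3r, Tlr2 and Runx1, a transcription factor gene not limited to myeloid cells, which was highest in Htr2b_cKO 4 at 99.8 CPM and lowest in the library labelled Htr2b_cKO 3 at 37.4 CPM. Of the 29 tested genes on that list 16 had a fold change above 0 and 13 below (median 0.06 on the log2 scale), and 0 were called. Mpeg1, which encodes a pore-forming protein of macrophages, had 264 and 80.3 CPM in control and 121, 279, 542 and 41.3 CPM in Htr2b_cKO. Of 11 genes of phagocytic and lipid-handling macrophages 7 were above 0 and 4 below, 0 called. Of the 11, 5 had the 3 highest libraries of the macrophage genes (9.07% of all genes tested). Apoe, a lipid carrier also made by other cells, had 4667 and 1906 CPM in control and 2098, 3728, 9065 and 1054 CPM in Htr2b_cKO. Spp1, the gene of osteopontin, was among those that did not follow, with 213 and 126 CPM in control and 139, 315, 392 and 369.8 CPM in Htr2b_cKO. It was high in Htr2b_cKO 4, where the macrophage genes were lowest. Of the ligands of CSF1R, Csf1 stood at 229 ± 44 CPM in control (SD, n = 2) and 203 ± 38 CPM in Htr2b_cKO (SD, n = 4). Il34 had 11.1 and 10.1 CPM in control and 5.52, 4.91, 7.76 and 4.25 CPM in Htr2b_cKO, with no overlap between the groups (log2 fold change -0.92, SE 0.26, edgeR adjusted p = 0.385). It was the 1 gene without overlap on a list of 3 growth factor genes (19.6% of all genes tested).

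Libraries with more macrophage transcripts had a lower summed share of the 7 fibroblast markers. The 7 fibroblast markers made up 9.002% and 11.5% of the control libraries and 12.1%, 11.1%, 7.55% and 12.9% of Htr2b_cKO 1 to 4. Over the 6 libraries their log2 sum had r = -0.91 and rho = -1.0 with that of the macrophage genes (adjusted exact permutation p = 0.0333 for both, over 12 relations computed after the values were seen). Without the library labelled Htr2b_cKO 3 and Htr2b_cKO 4, the farthest from the median, r was -0.80. Pdgfra had 732 and 1237 CPM in control and 1003, 802, 668 and 1126 CPM in Htr2b_cKO, with r = -0.92 and rho = -0.83 (adjusted exact permutation p = 0.0889 for r and 0.233 for rho), and r = -0.92 without those libraries. Both sums share the library total. Within the controls alone, the library with more macrophage transcripts also had the lower share of the 7 markers. Postn, a gene of activated fibroblasts that is not among the 7, went the other way. It had 2309 and 1586 CPM in control and 1350, 1526, 2312 and 982 CPM in Htr2b_cKO. Its highest level was in the library labelled Htr2b_cKO 3 and its lowest in Htr2b_cKO 4.

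**Figure D5:**
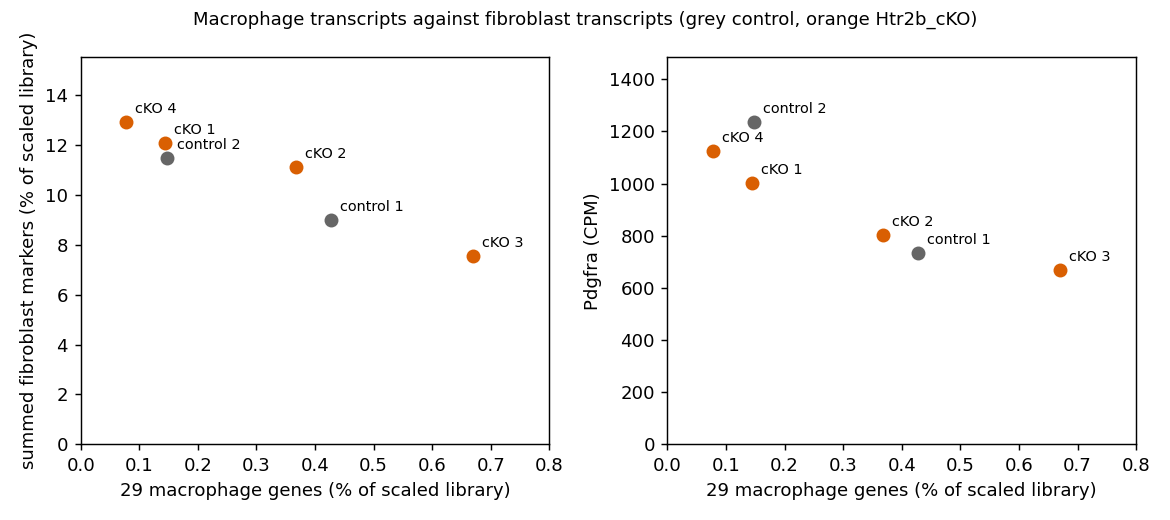
Summed fibroblast markers (left, percent of the scaled library) and Pdgfra (right, CPM) against the 29 macrophage genes (percent of the scaled library), 1 point per library, control in grey and Htr2b_cKO (cKO) in orange. Libraries with a macrophage share above 0.3%, which are control 1, Htr2b_cKO 2 and the library labelled Htr2b_cKO 3, have the 3 lowest values of fibroblast markers and of Pdgfra.

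Markers of other cell types did not all follow the macrophage genes. The sum of the 9 neutrophil markers was 98.5 and 33.8 CPM in control and 25.5, 23.3, 26.6 and 82.6 CPM in Htr2b_cKO, high in control 1 and in Htr2b_cKO 4, which had the fewest macrophage transcripts. Markers of T and NK cells (7 genes) followed the macrophage genes more closely, but only 3 of the 7 passed the filter on low counts. The sums of the 7 were low, at 5.23 and 2.06 CPM in control and 1.35, 2.26, 6.07 and 1.46 CPM in Htr2b_cKO (r = 0.88, rho = 0.94, adjusted exact permutation p = 0.05 for r and 0.1 for rho, and r = 0.80 without the library labelled Htr2b_cKO 3 and Htr2b_cKO 4). The other relations with the macrophage sum ran from r = -0.55 for the growth factors to r = 0.76 for mural markers, with adjusted exact permutation p values of 0.275 or more. Mast cell markers (4 genes) reached 2.75 to 4.22 CPM in the controls and 0 to 3.12 CPM in Htr2b_cKO. Endothelial, mural and cardiomyocyte markers were each highest in control 1, at 266, 77.3 and 29.3 CPM, against 66.8, 30.9 and 8.21 CPM in control 2 and 69.3 to 138, 37.9 to 58.2 and 8.67 to 23.9 CPM in Htr2b_cKO. Their part, and that of the sort, in the spread of macrophage transcripts between libraries was not tested.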

How the data were processed

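The authors deposited estimated counts per Ensembl gene; these are whole numbers, and per the file headers the columns come from quantification files at gene level. They also deposited a normalized signal, these counts divided by a factor of each gene and library; it was used only as an alternative. DRAGEN, DESeq2 and mm10 are named, without roles, per the submitters' processing notes; the library kit was directional per the labels' protocols, but how strand was used in counting, and the annotation, are not stated in them. All 42256 genes matched GENCODE M21, which gave names, positions and exon lengths.

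Genotype labels set the groups; replicates were numbered in accession order. CPM use library sizes scaled by TMM in edgeR 4.0.16 (R 4.3.3). The test was the edgeR quasi-likelihood F test, two-sided, on genotype alone, with filterByExpr (15840 genes kept) and Benjamini-Hochberg adjustment over all genes tested; an adjusted p under 0.05 was a call. SEs were taken from the fold change and F (fold change over the root of F). The function was tested on simulated data for this comparison (15438 genes): it recovered 81.9% of genes changed by 3 on the log2 scale and 25.5% of those changed by 1. Of 15246 unchanged genes it called 7. The changed genes were drawn from all genes in the fit. Only 1.05% of genes tested had an SD within genotype above the median of the 33 members, so these rates do not describe the members. Alternatives were DESeq2 1.42.0, limma 3.58.1 (voom), RLE size factors, no filter, a trend of GC content and exon length removed per library (mgcv 1.9.3), and leaving libraries out. Sums and ratios were tested by exact permutation. All 33 members could be named; for other lists, the 2 genes with the smallest p and the 2 most abundant; Vcan and H2-Ob were named after their values were seen. Members and lists were chosen with earlier results of these data known. p-values measure the spread between these libraries.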

Additional observations from a re-analysis of the deposited data

Results flagged for a closer look

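Among the 38 results looked at, 2 had 1 of the 4 Htr2b_cKO libraries far from the other 3; chance alone gives about 1 in 20. H2-Eb1 was at 37.95 CPM in the library labelled Htr2b_cKO 3, and the gap to the next library was 0.908 of the range of the group. The log2 ratio of Mrc1 to Ccr2 was 2.03 in Htr2b_cKO 4, with a gap of 0.835 of the range.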

How the results depend on the processing

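No member was called under any of the 12 alternative fits, where the lowest adjusted p of a member was 0.243. Over all genes, 3 were called; DESeq2 called 105, the fit with no filter on low counts 5, the fit without both the library labelled Htr2b_cKO 3 and Htr2b_cKO 4 called 5, and leaving out 1 library gave 1 to 8 (1 without control 1, 8 without Htr2b_cKO 4). limma voom put 26 of the 33 members below 0, the GC and length trend 12 of 33.

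Leaving out 1 library moved the macrophage sum from -0.90 to 0.63 on the log2 scale and the log2 ratio of Mrc1 to Ccr2 from -0.39 to 0.69. For single genes the log2 fold change ran from -0.57 to 0.96 for Csf1r, -0.55 to 1.29 for Cd68, -0.065 to 2.49 for Ms4a7, -0.59 to 1.4996 for Lyz2, -0.25 to 1.80 for Gpnmb, -0.80 to 0.87 for C1qa, -1.20 to 0.99 for Cx3cr1, -1.19 to 0.23 for H2-Aa and -1.10 to 0.020 for H2-Ab1. The GC and length trend turned Csf1r to 0.13, C1qa to 0.17, Ptprc to -0.040 and Ccr2 to -0.086. limma voom turned Cd68 to -0.14 and Lyz2 to -0.11, and leaving out both the library labelled Htr2b_cKO 3 and Htr2b_cKO 4 turned them to -0.042 and -0.16. The cause was not tested. Cd163, Timd4, Ciita, H2-Ob, Ly6c2, Plac8, Il34, Cd14, Cd74 and H2-Eb1 stayed below 0 in each of the 12 fits, and Mrc1 stayed above 0 (0.15 to 1.22).

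The median r with Csf1r was 0.978, 0.942 without the 2 farthest libraries and 0.966 with the authors' normalized values. There were 2 control libraries, and depth sets the floor of 0.0781 to 0.1085 CPM. No paired analysis was possible because the labels give no shared replicate numbers.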
